A study of Mus musculus with 2 samples.

Results

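C1q-positive macrophages were taken as cells that carried messenger RNA of complement C1q together with Csf1r, the receptor for colony-stimulating factor 1, and no transcript of 4 genes of other lineages. The count matrices of 2 mouse libraries were used, 1 from Alb-Cre Bicd2fl/fl mice (KO) and 1 from Alb-WT Bicd2fl/fl mice (WT). A barcode was kept with at least 200 genes detected, at most 20% of its unique molecular identifiers (UMIs) from mitochondrial genes and at most 10% from haemoglobin genes. A kept barcode was a member with at least 1 UMI over C1qa, C1qb and C1qc, at least 1 Csf1r UMI, and none of Flt3, Siglech, Cd3e and Cd79a, which mark dendritic cells, plasmacytoid dendritic cells, T cells and B cells. The rule found 121 members in KO and 215 in WT, 336 in all, among 10812 kept KO barcodes and 16666 kept WT barcodes. The whole series held 49230 barcodes. The members were thus chosen by the measured UMIs of the C1q genes, Csf1r and the exclusion genes, and the values of those genes are given as a description.

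KO mice carried 2 floxed alleles of Bicd2, which encodes an adaptor between dynein and its cargo, and a Cre recombinase under the albumin promoter, which is active in hepatocytes. WT mice carried the same floxed alleles without that Cre. Both groups had received liver S-100 protein in complete Freund's adjuvant, 2.5 mg weekly into the peritoneal cavity for 3 weeks, a model of autoimmune hepatitis. The study text describes immune cells from liver, enriched on Percoll, treated to lyse erythrocytes, sorted for living cells and pooled, whereas the sample labels name the cells as peritoneal and the treatment as HFD. The data bear on the tissue only through markers, given below, and the animals' age, sex and number were not given in the sources used here. Each group was 1 library, so no difference here has a replicate check, no p-value was computed, and every interval is a 95% interval that covers counting error only.

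Tissue macrophages that make C1q take up dying cells and immune complexes, and in many organs C1q is made chiefly by such cells and not by circulating monocytes. C1q is the recognition unit of the classical complement pathway, built of A, B and C chains. In liver the resident Kupffer cells make C1q and carry Clec4f, Timd4, Vsig4, Cd5l and Marco, and macrophages that descend from recruited monocytes gain C1q as they mature. Interferon-gamma, released by activated T and NK cells, acts on macrophages through transcription factors such as IRF1 and induces guanylate-binding proteins, CXCR3 ligands and antigen presentation.

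The KO library held 63869430 UMIs and the WT library 81159013. In KO 9283 barcodes fell under the gene minimum and 6863 over the haemoglobin limit, against 1919 and 3501 in WT. The libraries shared 177 barcode sequences, of which 53 were kept in both and 0 belonged to members. Members had a median of 4741 UMIs in KO (898 to 19587) and 5355 in WT (540 to 24600), and their UMIs summed to 657497 in KO and 1408854 in WT. Haemoglobin genes took 1.40% of member UMIs in KO and 0.469% in WT. A doublet caller marked 1 of the KO members and 19 of the WT members.

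The markers of the label were present and unevenly shared. Apoe, which encodes the lipid carrier apolipoprotein E, had a UMI in 102 of 121 KO members and 147 of 215 WT members, and the scavenger receptor gene Msr1 in 64 KO and 104 WT members. The summed level of C1qa, C1qb, C1qc, Apoe and Msr1 was 6872 CPM (UMIs scaled to a total of 1000000 over the members of a library) in KO and 3856 CPM in WT. Of 10 pan-macrophage markers none was at 0 in either library, and a member carried a median of 7 in KO and 6 in WT. Monocyte genes were common too. Plac8, a gene of immature and circulating myeloid cells, had a UMI in 97 KO and 196 WT members, and Ccr2, the receptor that lets monocytes leave the marrow, in 98 KO and 147 WT members. The label macrophage therefore covers cells that also carry monocyte RNA, and the cells are called C1q-positive macrophages below as the rule defines them.

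Ly6c2, a surface gene of classical monocytes, differed in how many members carried it. It had a UMI in 24 KO members (19.8%, exact interval 13.1 to 28.1%) and in 142 WT members (66.0%, 59.3 to 72.3%). With every cell thinned to 1000 UMIs the share was 7.50% in KO members and 37.7% in WT members, against 10.8% of KO and 15.4% of WT cells with Cd3e (median depth 2381 and 3561 UMIs). The KO share of members was thus no higher than that of Cd3e-positive cells of the same library, and the WT share was higher. Whether the Ly6c2 RNA of Cd3e-positive cells was free RNA or their own was not tested. At least 2 of 5 nonclassical monocyte markers (Ace, Treml4, Adgre4, Cd300e and Spn) were found in 71 KO members (58.7%) and 86 WT members (40.0%). Kupffer cell genes were rare: at least 2 of Clec4f, Timd4, Vsig4, Cd5l and Marco were found in 4 KO members and 24 WT members. At least 2 of 6 genes of large peritoneal macrophages (Gata6, Selp, Alox15, Prg4, Garnl3 and Ltbp1) were found in 7 KO members and 1 WT member, with 1 KO cell in both sets. Neither set marked the other 111 KO and 190 WT members. The genes counted were parts of longer lists of 9 nonclassical, 12 Kupffer and 14 large peritoneal markers. At least 2 of all 14 peritoneal markers were found in 37 KO members (30.6%) and 95 WT members (44.2%). The direction for that set thus depended on the genes counted. With all 12 Kupffer markers it was 18 KO (14.9%) and 44 WT members (20.5%). With all 9 nonclassical markers it was 107 KO (88.4%) and 173 WT members (80.5%). Of 8 classical monocyte markers, Ly6c2 among them, at least 2 were found in 102 KO (84.3%) and 193 WT members (89.8%). Ccr2, also on that list, went the other way from Ly6c2, with a UMI in 81.0% of KO and 68.4% of WT members. These minimum marker numbers were chosen after the data were seen.

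RNA of marker genes of other cell types differed between the libraries and moved with the groups. The summed level of 12 neutrophil markers was 1690 CPM in KO members (0 to 215434 CPM per cell, median 330.5) and 15904 CPM in WT members (620 to 306170, median 3451), against 13452 and 73124 CPM over all kept KO and WT cells. Ly6g and Ltf were at 0 in KO members, and no neutrophil marker was at 0 in WT members. S100a8, a calcium-binding protein gene of the neutrophil list, had a UMI in 14.2% of thinned KO members and 68.1% of thinned WT members. The shares were 15.6% and 73.6% of thinned KO and WT cells with Cd3e. That share in members was no higher than in T cells of the same library. S100a8 was at 6609 CPM in WT members with a Ly6c2 UMI and 2084 CPM in WT members without one. In KO members it was at 526 CPM with and 673 CPM without. How much of this RNA the members made themselves was not tested. Erythroid markers went the other way from neutrophil markers, with 14128 CPM in KO (3772 to 99826 per cell) and 4721 CPM in WT (1538 to 68983). Of the 8 erythroid markers found 0 were at 0 in either library. Hepatocyte markers summed to 192 CPM in KO and 72.4 CPM in WT, most of it Trf, which macrophages also make, with Apob and Cps1 at 0 in both. The 9 mesothelial and stellate cell markers summed to 0 CPM in KO and 0.710 CPM in WT.

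The amount of C1q RNA per member was higher in KO over all members. The median was 10 C1q UMIs per cell in KO (quartiles 3 and 25, highest 136) and 4 in WT (quartiles 1 and 13.5, highest 160). C1qa was at 990.1 CPM in KO and 566 CPM in WT, C1qb at 1497 CPM in KO and 779 CPM in WT, and C1qc at 894 CPM in KO and 586 CPM in WT. All 3 chains thus stood higher in KO members, between 1.53-fold for C1qc and 1.92-fold for C1qb. This did not hold among members without a Ly6c2 UMI, where C1qa was 1.34-fold lower (1.18 to 1.51) and C1qc 1.502-fold lower (1.33 to 1.70) in KO, and C1qb was at 1749 CPM in KO and 1736 CPM in WT. At least 10 C1q UMIs were found in 65 KO members (53.7%) and 70 WT members (32.6%). At the threshold, 18 KO and 63 WT members had 1 C1q UMI, and just outside it 813 KO and 1670 WT cells met the rest of the rule with 0 C1q UMIs. A single C1q UMI was also found in 1.02% of KO and 2.43% of WT cells with Cd3e, against 1.93% of KO and 3.34% of WT cells that met the rest of the rule. A single UMI thus set members only weakly apart from Cd3e-positive cells. Whether the C1q RNA of Cd3e-positive cells was free RNA or had another source was not tested. At least 3 UMIs were found in 10.4% of the KO and 6.84% of the WT cells meeting the rest of the rule, against 0.319% and 0.506% of KO and WT cells with Cd3e.

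**Figure D1:**
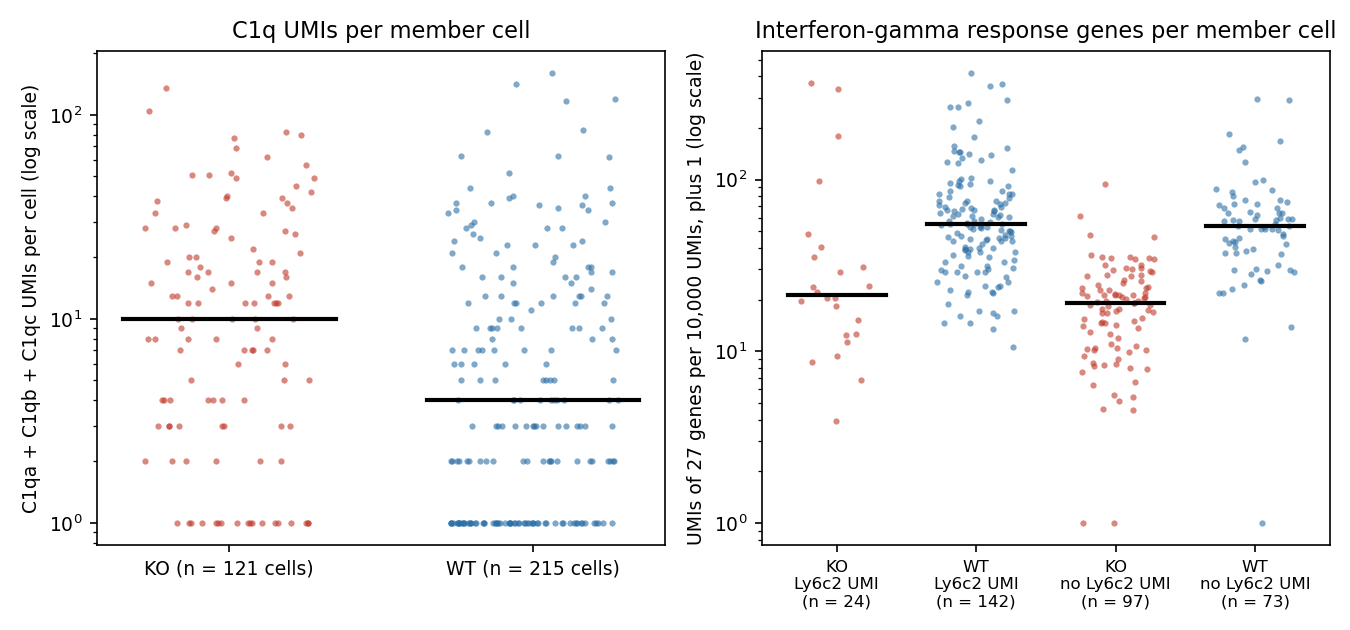
Left, C1qa, C1qb and C1qc UMIs per cell (log scale) in 121 KO and 215 WT members, with the median (10 in KO, 4 in WT) as a line. Right, UMIs of 27 interferon-gamma response genes per 10000 UMIs of the cell, plus 1 (log scale), in members with and without a Ly6c2 UMI; the KO medians lie below the WT medians in both.

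Cells with more C1q RNA carried more RNA of other macrophage genes, in both libraries. Mertk, a receptor that binds apoptotic cells, was at 47.5 CPM in KO and 28.2 CPM in WT members with 1 to 2 C1q UMIs, and at 339 CPM in KO and 327 CPM in WT members with at least 10. Apoe was at 799 CPM in KO and 457 CPM in WT members with 1 to 2 C1q UMIs, and at 4310 CPM in KO and 3557 CPM in WT members with at least 10. Ly6c2 ran the other way, at 761 CPM in KO and 1513 CPM in WT members with 1 to 2 C1q UMIs, and at 64.0 CPM in KO and 472 CPM in WT members with at least 10.

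As a share of all kept cells the members differed little between the libraries. They made up 1.12% of kept cells in KO (0.929 to 1.34%) and 1.29% in WT (1.12 to 1.47%), a KO over WT ratio of 0.868 with a counting interval of 0.695 to 1.08. Of the cells that met the rest of the rule they made up 13% in KO and 11.4% in WT, a ratio of 1.14 (0.922 to 1.40). Both intervals include equality. The direction of the first ratio turned when the C1q minimum was raised: with at least 3 C1q UMIs its log2 value was 0.21 and with at least 10 it was 0.52, against -0.21 with 1. In a suspension that was enriched, sorted and pooled, these shares are not numbers of cells per liver.

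Bicd2 itself was sparse in the members, where no deletion was designed. KO members held 8 Bicd2 UMIs (12.2 CPM, 8 cells) and WT members 34 (24.1 CPM, 29 cells), a ratio of 0.504 with an interval of 0.202 to 1.11. Hepatocytes, the cells in which albumin-driven Cre acts, were not among the cells analysed, so these counts do not check the deletion. Of 13 measured genes of dynein, dynactin, BICD and Rab6, the machinery that BICD2 binds, 0 passed 2-fold in either direction, with a median log2 ratio of 0.12.

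Across all genes, 6003 had at least 50 UMIs over both libraries and are called measured. A gene was counted as past 2-fold at a log2 ratio of CPM + 1, KO over WT, of at least 1 or at most -1. Of the 6003 genes, 2.98% (179) were past 2-fold higher in KO and 5.0% (300) past 2-fold lower, and the median log2 ratio was 0.04. Scaling with TMM or DESeq2 size factors moved that median by -0.08 and -0.10. The counts for each list below are read against those shares.

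Interferon-gamma response genes were lower in KO members nearly throughout. Of 27 genes listed 26 were measured, 20 were past 2-fold lower and 0 past 2-fold higher, against 5.0% of all genes lower, and the median log2 ratio was -1.495. Ciita, the master regulator of MHC class II genes, was the 1 gene above 0, at 324 CPM in KO and 278 CPM in WT (log2 0.22). Irf1, a transcription factor gene of the response, was at 126 CPM in KO and 298 CPM in WT, 2.36-fold lower (1.86 to 3.03), though its log2 ratio was 0.12 when cells were thinned to 1000 UMIs before the rule was applied.

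Several effector genes of that response stood further apart than Irf1. The guanylate-binding protein gene Gbp2, which acts against intracellular microbes, was at 125 CPM in KO (28 cells) and 589 CPM in WT (153 cells), 4.72-fold lower in KO (3.76 to 6.002). The immunity-related GTPase genes Igtp and Iigp1 were 6.32-fold (3.60 to 12.1) and 19.8-fold (11.0 to 40.0) lower in KO, Iigp1 with 11 UMIs in 4 KO members and 467 UMIs in 106 WT members. Cxcl10, a ligand of the T-cell receptor for chemokines CXCR3, was at 25.9 CPM in KO (4 cells) and 370 CPM in WT (35 cells), 14.3-fold lower (8.85 to 24.7). The surface protein gene Ly6a was at 92.8 CPM in KO and 779 CPM in WT, 8.40-fold lower (6.49 to 11.1). The size of these differences in summed UMIs varied with Ly6c2. In members with a Ly6c2 UMI Gbp2, Iigp1, Cxcl10 and Ly6a were 1.77-fold, 6.44-fold, 4.32-fold and 5.56-fold lower in KO. Those KO sums came from 24 cells, with Iigp1 in 1 and Cxcl10 in 3 of them. Single cells among them reached 366, 338 and 178 UMIs of the whole list per 10000, against a median of 20.2. In members without a Ly6c2 UMI the same genes were 7.79-fold, 51.6-fold, 35.9-fold and 10.4-fold lower. Nos2, the inducible nitric oxide synthase, had 0 UMIs in KO and 84 in WT (59.6 CPM in 10 cells, 88.1% of it in 3 of them). With a floor of 3 counts per library it was 13.1-fold lower in KO, and the lower limit of its interval was 10.4-fold.

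The other CXCR3 ligand of the list, Cxcl9, was held by few cells. It was at 273.8 CPM in KO (180 UMIs in 8 cells, 82.8% of them in the 3 top cells) and 1192 CPM in WT (1679 UMIs in 66 cells), 4.35-fold lower in KO (3.73 to 5.11). In members with a Ly6c2 UMI it was at 979 CPM in KO and 1340 CPM in WT, and in members without one at 61.4 CPM in KO and 668 CPM in WT. Of the 180 KO UMIs of Cxcl9, 149 lay in Ly6c2-positive members.

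**Figure D2:**
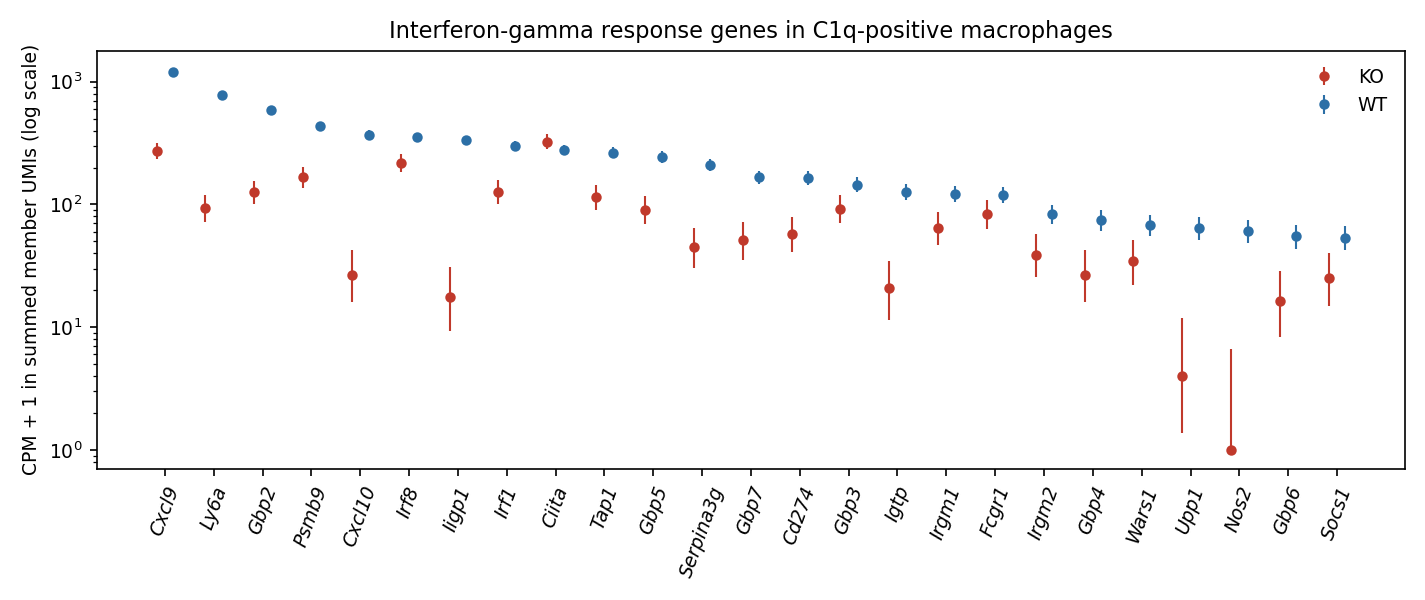
CPM + 1 (log scale) of 25 of the 26 measured interferon-gamma response genes in summed UMIs of KO (left point of each pair) and WT members (right point), with exact 95% Poisson intervals. The KO point lies below the WT point for every gene plotted but Ciita.

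Promoters of 4 of these genes are shown because they hold the elements through which interferons are known to act on such genes. Each is the RefSeq window from 250 bases before to 50 after a gene's start in build GRCm38.p6, which differs from the build of the counts, written 5′ to 3′ on the gene's strand. Capitals mark matches to TTCNNNGAA, the core of the gamma-activated site, and to GAAA, any pair of bases and GAAA again, on either strand, a form of the interferon-stimulated response element.
Cxcl10, chr5:92348840-92349139, minus strand, response element: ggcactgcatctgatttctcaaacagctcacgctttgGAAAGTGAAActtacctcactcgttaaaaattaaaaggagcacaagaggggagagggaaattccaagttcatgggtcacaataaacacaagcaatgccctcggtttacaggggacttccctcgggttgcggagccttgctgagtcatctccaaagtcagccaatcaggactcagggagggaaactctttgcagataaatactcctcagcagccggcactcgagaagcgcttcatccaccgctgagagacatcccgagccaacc
Gbp2, chr3:142620413-142620712, plus strand, response element on the other strand: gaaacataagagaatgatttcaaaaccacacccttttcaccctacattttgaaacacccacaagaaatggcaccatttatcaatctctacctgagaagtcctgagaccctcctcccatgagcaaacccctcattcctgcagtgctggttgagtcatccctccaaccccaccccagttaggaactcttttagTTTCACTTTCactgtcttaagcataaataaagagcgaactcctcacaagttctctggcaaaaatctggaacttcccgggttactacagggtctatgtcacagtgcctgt
Igtp, chr11:58199306-58199605, plus strand, gamma-activated site and then response element: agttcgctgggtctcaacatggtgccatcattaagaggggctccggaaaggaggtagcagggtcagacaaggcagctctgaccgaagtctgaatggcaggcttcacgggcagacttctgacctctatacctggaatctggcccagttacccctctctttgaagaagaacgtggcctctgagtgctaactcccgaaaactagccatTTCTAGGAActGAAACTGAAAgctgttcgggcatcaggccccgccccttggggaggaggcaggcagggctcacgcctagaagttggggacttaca
Irf1, chr11:53769764-53770063, plus strand, gamma-activated site: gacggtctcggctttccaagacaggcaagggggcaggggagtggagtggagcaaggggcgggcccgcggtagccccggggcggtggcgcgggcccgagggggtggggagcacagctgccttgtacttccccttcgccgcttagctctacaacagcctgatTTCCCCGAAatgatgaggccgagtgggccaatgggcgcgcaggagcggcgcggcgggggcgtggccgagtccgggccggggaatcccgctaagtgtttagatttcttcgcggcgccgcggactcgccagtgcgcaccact
Of the 27 listed genes 18 had a window, some of them several. Of their 23 windows 8 (34.8%) held TTCNNNGAA and 9 (39.1%) held the response element, against 8.30% and 3.44% of all 32851 windows. TTCNNNGAA reads the same on both strands, and a match is a description of these letters and not evidence of binding. In the Igtp window the gamma-activated site lies at -45 to -37 and the response element at -34 to -25 relative to the gene's start, and in the Irf1 window the site lies at -90 to -82.

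Taken cell by cell, the 27 interferon-gamma response genes made up a median of 18.5 UMIs per 10000 in KO members (quartiles 10.3 and 26.6, highest 366) and 53.2 in WT members (quartiles 36.1 and 74.0, highest 416). The upper quartile of KO cells lay below the lower quartile of WT cells, though the ranges overlap. Among members with a Ly6c2 UMI the medians were 20.2 in KO and 53.8 in WT, and among members without one 18.1 in KO and 52.4 in WT. The KO median was therefore the lower one within each kind of member. Summed by gene, the list's median log2 ratio was -0.57 among members with Ly6c2 (26 genes measured, 10 past 2-fold lower) and -1.84 among members without (18 measured, 14 past 2-fold lower). The few high KO cells given above enter the sums with Ly6c2. With at least 10 C1q UMIs it was -1.85.

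MHC class I genes, which the same pathway induces and which load peptides for CD8 T cells, were lower in KO as a group. All 20 listed genes were measured, 9 were past 2-fold lower, 0 past 2-fold higher and 19 below 0, with a median log2 ratio of -0.94. The heavy chain gene H2-K1 was at 1297 CPM in KO and 2419 CPM in WT, 1.86-fold lower (1.73 to 2.01), and the light chain gene B2m at 2157 CPM in KO and 3536 CPM in WT, 1.64-fold lower (1.55 to 1.74). Their abundance leaves small counting intervals, and both stayed short of 2-fold. The nonclassical gene H2-Q7 was at 63.9 CPM in KO and 285 CPM in WT, 4.46-fold lower (3.24 to 6.28). The peptide transporter gene Tap1 was 2.31-fold lower (1.80 to 3.00), and the immunoproteasome genes Psmb8 and Psmb9 were 2.41-fold (2.04 to 2.85) and 2.62-fold (2.14 to 3.25) lower. Nlrc5, the transactivator of class I genes, was at 86.7 CPM in KO and 175 CPM in WT. The median log2 ratio of the list was -0.94 among members with a Ly6c2 UMI and -0.95 among members without one.

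MHC class II genes, which present peptides to CD4 T cells, were at nearly the same level in both. Of 10 measured genes 0 were past 2-fold in either direction and the median log2 ratio was -0.06. H2-Aa was at 5156 CPM in KO and 5383 CPM in WT, 1.04-fold lower (1.00 to 1.09), and the invariant chain gene Cd74 at 9081 CPM in KO and 8951 CPM in WT. Per cell, the class II list made up a median of 279.9 UMIs per 10000 in KO and 278 in WT, while the class I list made up 70.4 in KO and 126 in WT. Within the list, Lgmn and Ifi30, a lysosomal protease and a lysosomal thiol reductase that process antigen, stood furthest from 0 on opposite sides, at log2 0.93 and -0.81. Within each kind of member H2-Aa was somewhat lower in KO, at 3745 CPM in KO and 4902 CPM in WT with Ly6c2, and at 5581 CPM in KO and 7087 CPM in WT without.

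Type I interferon response genes, most of which act against viruses, did not stand lower as a group. Of 16 measured genes 0 were past 2-fold, 11 were above 0, and the median log2 ratio was 0.34. Oas2, an antiviral RNA sensor, was at 71.5 CPM in KO and 41.2 CPM in WT (1.74-fold higher, 1.16 to 2.60), and Irf7 at 147.5 CPM in KO and 101.5 CPM in WT (1.45-fold higher, 1.11 to 1.89). Isg15, a ubiquitin-like protein, was the lowest of the list at 100.4 CPM in KO and 181 CPM in WT (1.80-fold lower, 1.37 to 2.40). Per cell the list made up a median of 14.8 UMIs per 10000 in KO members and 11.5 in WT members.

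Genes of inflammation and NF-kB signalling were mostly lower in KO. Of 20 measured genes 11 were past 2-fold lower and 1 past 2-fold higher, with a median log2 ratio of -1.12. Il1b was at 102 CPM in KO and 282.5 CPM in WT, 2.77-fold lower (2.14 to 3.65), and Tnf at 10.6 CPM in KO (7 UMIs) and 41.9 CPM in WT (59 UMIs), 3.93-fold lower (1.79 to 10.2). The feedback inhibitor gene Tnfaip3 was 4.24-fold lower (2.33 to 8.46), and Acod1, whose product makes itaconate, 11.6-fold lower (6.19 to 24.4), with 10 UMIs in 3 KO members and 248 in 64 WT members. Sod2, a mitochondrial antioxidant enzyme, was at 119 CPM in KO and 382 CPM in WT. Neutrophils also carry Il1b, Acod1 and Sod2, and the neutrophil marker sum given above moved the same way; its part in these differences was not tested. Per cell this list made up a median of 15.6 UMIs per 10000 in KO and 27 in WT.

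Chemokines split by kind. Of 13 measured chemokine and receptor genes 4 were past 2-fold lower and 2 past 2-fold higher, with a median log2 ratio of -0.05. Ccl5, which draws T cells and NK cells, was at 71.5 CPM in KO (18 cells) and 651 CPM in WT (110 cells), 9.11-fold lower (6.79 to 12.5). NK cells and T cells carry Ccl5 as well, and in members the 8 NK cell markers summed to 27.4 CPM in KO (0 to 476 per cell, 2 markers at 0) and 172 CPM in WT (0 to 15198 per cell, 0 at 0), and the 10 T cell markers to 54.8 CPM in KO (0 to 3341 per cell, 2 at 0) and 125 CPM in WT (0 to 3013 per cell, 1 at 0); their part in this difference was not tested. Cx3cr1, the fractalkine receptor of nonclassical monocytes and tissue macrophages, was at 286 CPM in KO and 107 CPM in WT, 2.67-fold higher (2.14 to 3.33), and it was higher in KO both with Ly6c2 (log2 1.10) and without (1.12). Ccr2 was at 978 CPM in KO and 686 CPM in WT.

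Complement genes other than C1q ran in both directions. Without the 3 C1q genes, which the rule used, 11 were measured, 2 past 2-fold lower and 0 past 2-fold higher, with a median log2 ratio of 0.27. The whole list of 14 measured genes, C1q included, had a median of 0.58. That median was 0.012 without Ly6c2-positive members and -0.0396 after thinning. C3, the component on which all complement pathways meet, was at 134 CPM in KO (26 cells) and 424 CPM in WT (155 cells), 3.17-fold lower (2.53 to 4.01). Cfb, the protease gene of the alternative pathway, was at 114 CPM in KO and 473 CPM in WT, 4.14-fold lower (3.26 to 5.33). Cfp, the gene for properdin, which stabilises the C3 convertase, was at 224 CPM in KO and 118 CPM in WT, 1.90-fold higher (1.51 to 2.38). The classical component gene C4b was at 122 CPM in KO and 67.4 CPM in WT, but 82.5% of its KO UMIs lay in 3 cells. The receptor gene C3ar1 was at 51.7 CPM in KO and 28.4 CPM in WT. Among members with Ly6c2, C3 was at 361 CPM in KO and 445 CPM in WT, 1.23-fold lower with an interval that includes equality (0.931 to 1.66), and among members without it 5.33-fold lower (3.58 to 8.14). C3 is also carried by other myeloid cells, at 260.3 CPM in KO and 364 CPM in WT C1q-negative cells.

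Efferocytosis genes, through which macrophages take up dying cells, were higher in KO. Of 13 measured, 4 were past 2-fold higher, against 2.98% of all genes, 0 were past 2-fold lower, 12 were above 0, and the median log2 ratio was 0.81. Itgb5, a chain of an integrin that binds bridging molecules on dying cells, was at 382 CPM in KO (86 cells) and 110.0 CPM in WT (78 cells), 3.47-fold higher (2.83 to 4.27). Pparg, a nuclear receptor that responds to lipids, was at 138 CPM in KO and 52.5 CPM in WT, 2.64-fold higher (1.92 to 3.63). Itgb5 and Pparg were higher in KO with Ly6c2 (log2 1.42 and 1.34) and without (1.30 and 0.66). Mertk was at 265 CPM in KO and 167.5 CPM in WT (1.58-fold higher, 1.29 to 1.93), and Axl, a related receptor, at 309 CPM in KO and 176 CPM in WT (1.75-fold, 1.45 to 2.12). Mertk did not hold its direction within members that lacked Ly6c2, where it was at 317 CPM in KO and 409.7 CPM in WT (log2 -0.37). With every cell thinned to 1000 UMIs before the rule was applied, the list's median was -0.079 over the few genes still measured. Anxa1 was the 1 gene below 0, at 106.5 CPM in KO and 174 CPM in WT.

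**Figure D3:**
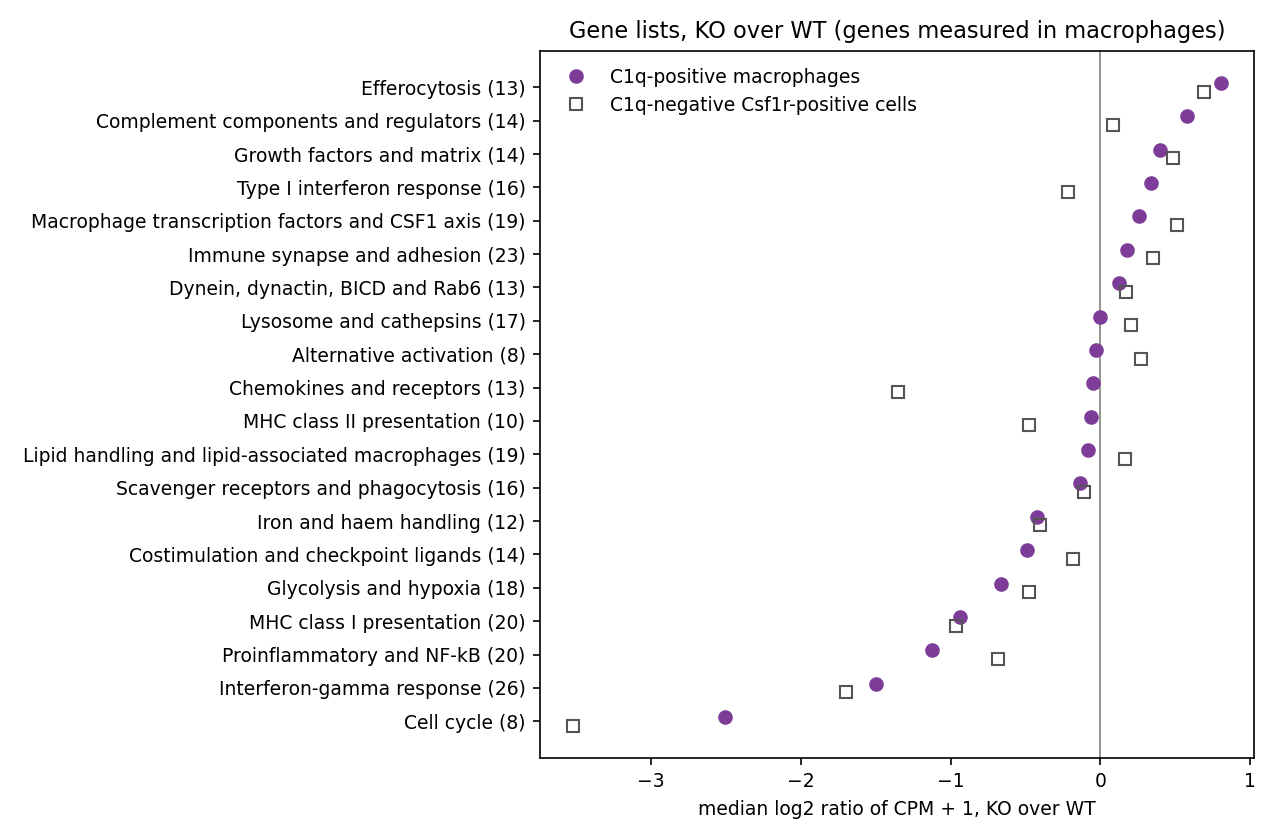
Median log2 ratio of CPM + 1, KO over WT, of 20 gene lists in C1q-positive macrophages (filled circles; number of measured genes in brackets) and in C1q-negative Csf1r-positive cells (open squares, over the genes measured there). Cell cycle (-2.51) and interferon-gamma response genes (-1.495) lie lowest in the macrophages and efferocytosis genes (0.81) highest.

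Scavenger and phagocytic receptors showed few large differences. Of 16 measured, 0 were past 2-fold higher and 2 past 2-fold lower, Clec4n (dectin-2, a receptor for fungal sugars; 44.1 CPM in KO and 161 CPM in WT) and Marco. The mannose receptor gene Mrc1 was at 117 CPM in KO and 64.6 CPM in WT, 1.81-fold higher (1.32 to 2.48). The high-affinity IgG receptor gene Fcgr1 was at 82.1 CPM in KO and 119 CPM in WT, 1.45-fold lower (1.06 to 2.01). Lysosomal genes showed no such difference: of 17 measured 0 were past 2-fold, with a median log2 ratio of -0.0011, and Ctsb, a lysosomal protease gene, was at 1051 CPM in KO and 1029 CPM in WT.

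Several genes of lipid uptake and storage were lower in KO. Of 19 measured 5 were past 2-fold lower and 0 past 2-fold higher, with a median log2 ratio of -0.09. Apoe was at 3256 CPM in KO and 1764 CPM in WT, 1.85-fold higher (1.74 to 1.957), but in members without Ly6c2 it was at 3758 CPM in KO and 3800.2 CPM in WT (log2 -0.02). Lpl, the lipase that frees fatty acids from lipoproteins, was at 74.5 CPM in KO and 289.6 CPM in WT, 3.89-fold lower (2.88 to 5.34). Gpnmb, a gene of lipid-laden macrophages, had 2 UMIs in KO and 104 in 25 WT members, a 24.3-fold difference with an interval of 6.55 to 203. Fabp5, Apoc1 and Cd63 were the others past 2-fold lower, by 2.88-fold (2.13 to 3.97), 6.41-fold (3.48 to 13.1) and 2.83-fold (1.89 to 4.39), while Abca1 and Abcg1, the cholesterol exporters, were at log2 -0.08 and 0.11.

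Iron genes were led by ferritin. Fth1, the ferritin heavy chain that stores iron, was at 2049 CPM in KO and 6126 CPM in WT, 2.99-fold lower (2.82 to 3.17), and lower in KO with Ly6c2 (log2 -1.53) and without (-1.75). The light chain gene Ftl1 was at 2856 CPM in KO and 3591 CPM in WT. Hmox1, which breaks down haem, was at 82.1 CPM in KO and 163 CPM in WT, 1.99-fold lower (1.47 to 2.73), beside the higher haemoglobin RNA of KO members. Trf, the gene for the iron carrier transferrin, was at 154 CPM in KO (49 cells) and 44.7 CPM in WT (38 cells), 3.44-fold higher (2.48 to 4.78). Of 12 measured iron genes 2 were past 2-fold lower and 1 higher. Neutrophils carry Fth1 RNA in abundance as well, and the part of the neutrophil marker RNA given above in this difference was not tested.

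Adhesion genes held one of the largest differences. Adgrl3 encodes latrophilin-3, an adhesion G-protein-coupled receptor best known from synapses. It was at 426 CPM in KO (280 UMIs in 61 cells) and 17 CPM in WT (24 UMIs in 13 cells), 25-fold higher (16.5 to 39.7). With cells thinned to 1000 UMIs, 26.7% of KO members and 1.93% of WT members had an Adgrl3 UMI, against 0.552% and 0.208% of KO and WT cells with Cd3e. The KO reads were spread, with 19.3% in the 3 top cells, and the log2 ratio was 4.14 among members with Ly6c2 and 5.39 among members without. Itga9, an integrin chain for matrix ligands, was at 377 CPM in KO (67 cells) and 68.9 CPM in WT (38 cells), 5.48-fold higher (4.32 to 7.001). It was 8.42-fold higher (4.71 to 15.2) among members with Ly6c2 and 1.85-fold higher (1.41 to 2.44), short of 2-fold, among members without. Cd81, a tetraspanin, was at 274 CPM in KO and 92.3 CPM in WT, 2.97-fold higher (2.35 to 3.75). Vcam1, an adhesion molecule of resident macrophages, had 4 UMIs in 4 KO members and 88 in 29 WT members, 10.3-fold lower (3.87 to 38.5), and Icam1 was 2.43-fold lower (1.71 to 3.54). Of 23 measured genes of the adhesion list 4 were past 2-fold higher and 3 lower, with a median log2 ratio of 0.18.

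**Figure D4:**
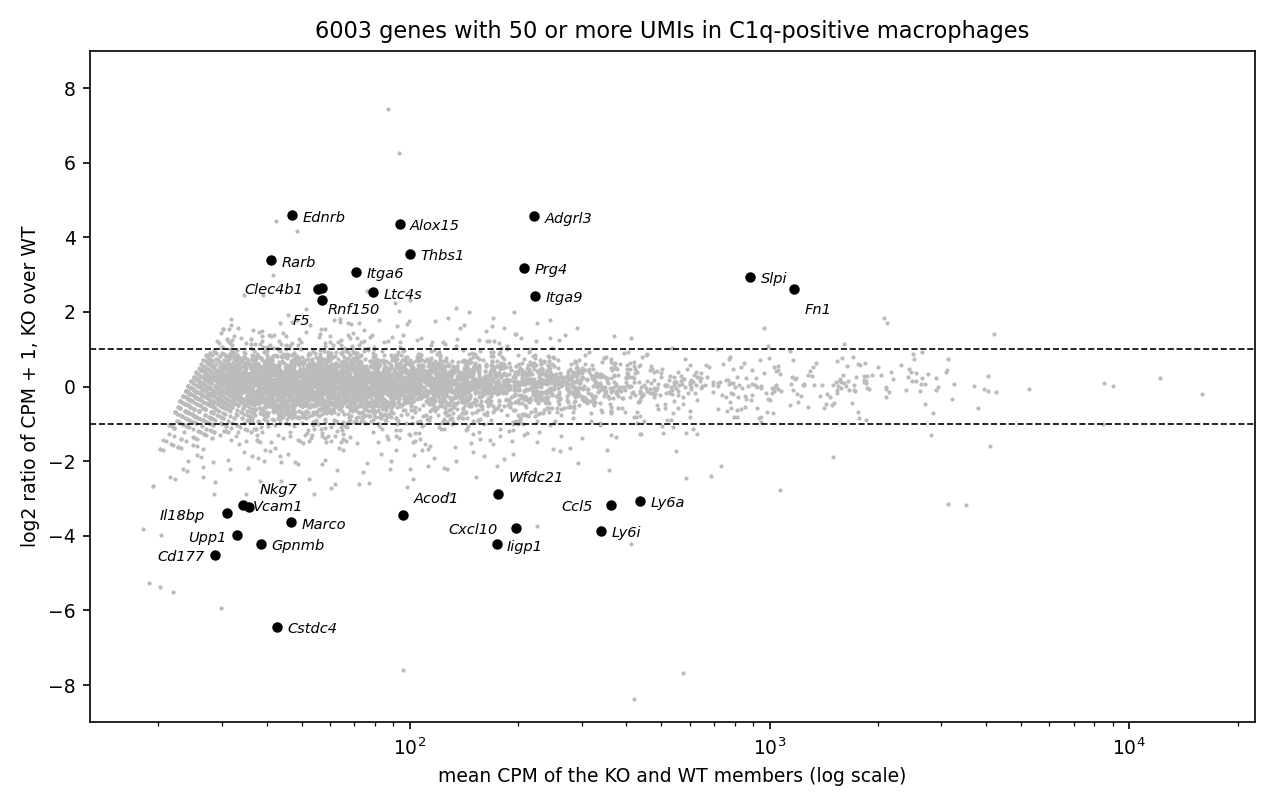
Log2 ratio of CPM + 1, KO over WT, against mean CPM of KO and WT members (log scale) for 6003 measured genes, with dashed lines at 2-fold. Black points name 14 of the 15 highest and the 15 lowest eligible genes; Adgrl3 (25-fold higher) and Itga9 (5.48-fold) lie high, and Iigp1 (19.8-fold lower) and Cxcl10 (14.3-fold lower) low.

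Among the 15 highest genes by a rule on counts and cells, Ednrb, Thbs1, Rarb, Clec4b1, Rnf150, Ltc4s and F5 joined Adgrl3, Itga9, Itga6, Alox15, Prg4, Slpi and Fn1. Clec4b1, a C-type lectin, and Rnf150, a ring-finger protein, were carried by many cells: 40 KO and 17 WT members had a Clec4b1 UMI, and 38 KO and 15 WT members a Rnf150 UMI, with ratios of 6.63 (4.00 to 11.4) and 6.43 (3.87 to 11.1). Thbs1, whose product thrombospondin-1 activates TGF-beta, was at 186 CPM in KO (16 cells) and 14.9 CPM in WT (8 cells), 12.4-fold higher (7.79 to 20.8), with 53.3% of its KO UMIs in 3 cells. Ednrb, an endothelin receptor gene, had 60 UMIs in 10 KO members and 4 in 2 WT members. The growth factor gene Pdgfb was at 85.2 CPM in KO (37 cells) and 28.4 CPM in WT (32 cells), 3.00-fold higher (1.964 to 4.62). The transcription factor gene Maf, of mature macrophages, was at 349.8 CPM in KO and 141 CPM in WT, 2.48-fold higher (2.04 to 3.01), with log2 1.53 among members with Ly6c2 and 0.32 among members without.

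The KO UMIs of several of the highest genes lay in 7 cells. The 7 KO members with at least 2 large peritoneal macrophage genes held 244 of the 246 Prg4 UMIs and 118 of 118 Alox15 UMIs of KO members, which the choice of these cells by those genes sets. Of genes not used to choose them, they held 850 of 885 Saa3 UMIs, 986 of 1030 Slpi UMIs, 668 of 1324 Fn1 UMIs, 90 of 122 Thbs1 UMIs and 78 of 84 Itga6 UMIs. Prg4 encodes lubricin, Alox15 a lipoxygenase that oxidises fatty acids, Saa3 an acute-phase protein, Slpi a protease inhibitor and Fn1 fibronectin. With the members of either marker set left out, a choice made after the data were seen, the log2 ratio of Slpi was -1.47, against 2.95 over all members. In the same cells Fn1 was 1.76-fold higher in KO (1.51 to 2.04), Thbs1 had 13 UMIs in KO and 17 in WT (1.76-fold, 0.787 to 3.85), and Itga6 had 5 in KO and 5 in WT (2.30-fold, 0.530 to 10.01). In those 7 cells Adgrl3 had 0 UMIs. The high KO level of Slpi, Thbs1 and Itga6 thus came mostly from few cells, whereas Adgrl3, Itga9 and Itgb5 were carried by 61, 67 and 86 KO members.

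**Figure D5:**
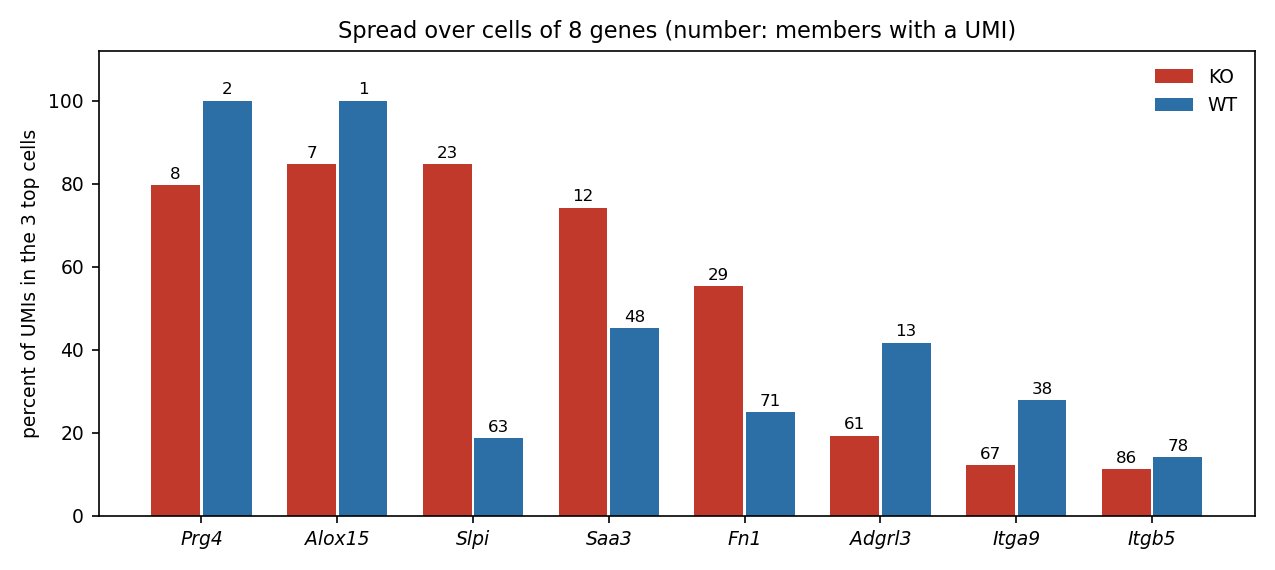
Percent of each gene's UMIs that lay in its 3 top cells, in KO (left bars) and WT members (right bars); the number above a bar is how many members had a UMI. Prg4, Alox15 and Slpi in KO rest on few cells (79.7 to 84.8%), and Adgrl3, Itga9 and Itgb5 on many (11.2 to 19.3%).

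The Kupffer-marked members were few and unequal. The 4 KO cells held 17 Clec4f and 3 Marco UMIs, and the 24 WT cells held 98 and 122. A Clec4f UMI was found in 2 of the 4 KO cells and 20 of the 24 WT cells. Fn1 had 395 UMIs in 2 of the KO cells and 2 UMIs in the WT cells. Saa3 had 86 UMIs in the KO cells and 2 in the WT cells. The 1 KO cell in both marker sets held 53 of those Fn1 UMIs. The KO and WT cells so marked were therefore not alike in other genes. Clec4f, a Kupffer cell lectin, was at 25.9 CPM in KO members (2 cells) and 71.7 CPM in WT members (23 cells), 2.77-fold lower (1.65 to 4.95). Marco, a scavenger receptor, was at 6.08 CPM in KO and 87.3 CPM in WT, 14.4-fold lower (5.46 to 53.5). Marco helped choose the marked cells, so its level in them is a description. Within them it was at 94.7 CPM in KO (1 of 4 cells) and 1432 CPM in WT (20 of 24 cells). Cd5l, a secreted scavenger protein, was less confined, with a UMI in 17 KO and 35 WT members (138 CPM in KO and 267 CPM in WT). All 7 KO members with at least 2 large peritoneal macrophage genes carried it, with 37 of its 91 KO UMIs. Cd5l therefore did not separate the Kupffer-marked from the peritoneal-marked KO cells. Fewer Kupffer cells and less Kupffer RNA per cell cannot be told apart in such sums.

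The 15 lowest genes held other interferon-responsive and myeloid genes besides those above. Ly6i, a relative of Ly6a, was at 42.6 CPM in KO (14 cells) and 637 CPM in WT (131 cells), 15-fold lower (10.3 to 22.6). Upp1, uridine phosphorylase, had 2 UMIs in KO and 89 in 39 WT members. Il18bp, which neutralises interleukin-18, had 3 UMIs in KO and 81 in 52 WT members, 12.6-fold lower (4.16 to 62.4). Cstdc4, a cystatin-domain gene, had 0 UMIs in KO and 120 in 21 WT members, 71.7% of them in 3 cells. With a floor of 3 counts it was 18.7-fold lower in KO, and the lower limit of its interval was 14.9-fold. Cd177, with 1 UMI in KO and 79 in 30 WT members, and Wfdc21, at 41.1 CPM in KO and 311 CPM in WT, are also genes of neutrophils. Neutrophil marker RNA differed between the libraries as given above, and its part was not tested. Nkg7, a gene of cytotoxic lymphocytes, had 4 UMIs in KO and 92 in 37 WT members.

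Other lists were smaller in effect or, as for cell cycle genes, in reads. Of 18 measured glycolysis and hypoxia genes 5 were past 2-fold lower and 0 higher (median -0.66), among them the glucose transporter gene Slc2a1 at 15.2 CPM in KO and 63.2 CPM in WT and Pgk1 at 100.4 CPM in KO and 255 CPM in WT. Of 8 measured cell cycle genes 6 were past 2-fold lower (median -2.51), and Mki67, a marker of dividing cells, had 10 UMIs in 7 KO members and 149 in 33 WT members. Of 14 costimulation genes 4 were past 2-fold lower and 1 higher (median -0.49), with Cd86 at 89.7 CPM in KO and 173 CPM in WT and Cd274, which encodes PD-L1, at 56.3 CPM in KO and 164 CPM in WT. Of 8 genes of alternative activation 3 were past 2-fold lower and 1 higher (median -0.03); Chil3 was at 219 CPM in KO and 1158 CPM in WT, but 1.95-fold lower (1.61 to 2.37) with Ly6c2 and 1.63-fold lower (0.949 to 2.80) without, while Arg1 had 12 UMIs in 5 KO cells and 73 in 8 WT cells. Of 19 macrophage transcription factor and CSF1 axis genes 2, Maf and Pparg, were past 2-fold higher (median 0.26), and 0 were past 2-fold lower. Of 14 growth factor and matrix genes 4 were past 2-fold higher and 4 lower (median 0.40).

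C1q-negative cells that met the rest of the rule were used to show where the macrophages differ. They carried 8 classical monocyte markers at a summed 7255 CPM in KO and 10756 CPM in WT. Their 12 neutrophil markers summed to more, 9812 CPM in KO and 46898.5 CPM in WT, against 1690 and 15904 CPM in members. The part of that RNA in the comparisons below was not tested. There were 813 C1q-negative cells in KO and 1670 in WT. In them 10077 genes were measured, of which 3.08% were past 2-fold higher in KO and 7.24% lower. The interferon-gamma list was lower there too, with 22 of 25 measured genes past 2-fold lower and a median of -1.70, and MHC class I genes had a median of -0.96. The lower level of these lists in KO was therefore seen in both kinds of cell. Efferocytosis genes were higher in C1q-negative KO cells as well, with 4 of 14 measured genes past 2-fold higher and a median of 0.69. Cell cycle genes were lower there, with 23 of 24 measured genes past 2-fold lower and a median of -3.52. Medians stood apart for chemokines (-0.05 in C1q-positive and -1.35 in C1q-negative cells), type I interferon genes (0.34 and -0.22) and MHC class II genes (-0.06 and -0.47). They were taken over 13 and 15, 16 and 21, and 10 and 12 measured genes, so not over the same genes. These differences were not tested. Adgrl3 was at 142 CPM in KO and 17.2 CPM in WT C1q-negative cells, so it was higher in KO in both kinds of cell.

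Within each library, a set of genes was higher in the macrophages than in the C1q-negative cells. In KO 7409 genes had at least 50 UMIs over both kinds of cell, and 3.35% were past 2-fold higher and 6.06% past 2-fold lower in macrophages; in WT 9870 genes did, with 2.48% higher and 5.20% lower. As the rule chose these cells on C1q, the values describe them. Mertk was 16.2-fold higher in macrophages than in C1q-negative cells of KO and 18.5-fold higher in those of WT. Mrc1 was 17.9-fold and 21.6-fold higher, and Itga9 18.9-fold and 42.6-fold, in KO and in WT. Snx24, a sorting nexin, was 18.5-fold higher in KO and 14.7-fold higher in WT. H2-Aa was at 5156 CPM in KO macrophages against 982 CPM in KO C1q-negative cells, and at 5383 CPM in WT macrophages against 1461 CPM in WT C1q-negative cells. Cd5l was at 138 CPM in KO macrophages and had 0 UMIs in KO C1q-negative cells, and it was 268-fold higher in WT macrophages. Kcnk13, a potassium channel gene, was at 111 CPM in KO macrophages (25.6% of cells) and 3.27 CPM in KO C1q-negative cells, and at 33.4 CPM and 5.84 CPM in the WT cells. Cadm1, an adhesion molecule, was 9.36-fold higher in KO and 14.2-fold higher in WT macrophages.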

How the data were processed

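Single-cell RNA sequencing (10x Genomics 3' chemistry) gave 1 KO and 1 WT library. The deposited matrices hold UMI counts per gene and barcode for 33696 genes, made by the authors with Cell Ranger (6.0.1 per the submitters' processing notes, 8.0.1 per the file headers) on build mm39. Barcodes were kept and members found as described in the report. UMIs were summed per library over members and expressed as CPM, and ratios were taken as log2 of CPM + 1, KO over WT. Sums have exact Poisson intervals, ratios of sums exact conditional binomial intervals, ratios of shares intervals from the normal approximation on the log scale, and shares Clopper-Pearson intervals, all at 95%. Genes with at least 50 UMIs over both libraries were measured; a count of 0 was given a floor of 3 counts. The named genes were the 15 highest and 15 lowest with, in the higher library, at least 50 UMIs, 50 CPM and a UMI in 5% of members, and an interval that excluded equality, leaving out mitochondrial, ribosomal, haemoglobin, immunoglobulin, sex and predicted genes and markers of other lineages; genes of the lists and markers were also named. With 1 library per group no test was run. The members and the gene lists were chosen with earlier results of these data known. Doublets were scored with Scrublet in scanpy 1.11.5 and kept. Alternatives used edgeR 4.0.16 (TMM) and DESeq2 1.42.0 (size factors) in R 4.3.3 for scaling alone. Intervals were checked on simulated counts. Python 3.11.15, numpy 2.4.6, scipy 1.17.1 and pandas 2.3.3 were used. Promoter windows came from RefSeq, matched by symbol. A few genes that entered the counts and medians are not reported here by name.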

Additional observations from a re-analysis of the deposited data

Results flagged for a closer look

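Cxcl2, a chemokine for neutrophils, had a ratio of opposite sign in C1q-positive macrophages and C1q-negative cells. In the macrophages it was at 130.8 CPM in KO (86 UMIs in 5 cells) and 21.3 CPM in WT (30 UMIs in 6 cells), a log2 ratio of 2.56, and in C1q-negative cells at 6.91 CPM in KO and 31.1 CPM in WT, a log2 ratio of -2.02. Of the KO macrophage UMIs 63 lay in the 7 cells with at least 2 of the 6 large peritoneal macrophage genes. Saa3 was at 1346 CPM in KO macrophages (12 cells) and 632 CPM in WT macrophages (48 cells), a log2 ratio of 1.09, and at 48.7 CPM in KO and 300.04 CPM in WT C1q-negative cells, a log2 ratio of -2.60. The same 7 cells held 850 of the 885 KO UMIs. With 1 library per group these differences between the kinds of cell were not tested.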

How the results depend on the processing

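No paired analysis was possible because each group is 1 library, and for the same reason no replicate could be left out. The KO over WT log2 ratio of the share of kept cells (-0.21) was 0.21 with at least 3 C1q UMIs, 0.52 with at least 10, 1.03 with Ly6c2-positive members left out, 0.36 after thinning to 1000 UMIs before the rule and -0.67 without members over 1% haemoglobin. The counts past 2-fold (179 higher, 300 lower) were 1679 and 1901 with no minimum count, 49 and 111 with a minimum of 200 UMIs, and 16 and 23 after thinning; the lower count was 195 with at least 10 C1q UMIs, 151 without Ly6c2-positive members and 488 without the 3 top cells of each gene. The interferon-gamma median (-1.495) was -2.30 without the 3 top cells of each gene and stayed below 0 under every alternative run. The complement median (0.58) was 0.012 without Ly6c2-positive members, -0.0396 after thinning, 0.026 with members weighted equally and 0.15 without the 3 top cells. The class II median (-0.06) was -0.23 and -0.31 with at least 3 and 10 C1q UMIs, -0.21 without Ly6c2-positive members and 0.13 without members of either marker set. After thinning the type I interferon median was 1.13 and the efferocytosis median -0.079. Single genes turned sign for Apoe (-0.016) and Mertk (-0.37) without Ly6c2-positive members, for Irf1 (0.12), Mertk (-0.26) and Adgre1 (-0.0172) after thinning, for H2-Aa without members over 1% haemoglobin (0.054) or of either marker set (0.13), and for Slpi (-1.47) without members of either marker set. That setting also gave Prg4 (-0.82) and Marco (0.65), which helped choose the cells left out and had at most 1 UMI per library in the rest, so both values are void. The cause was not tested, beyond the fewer cells and reads that these settings leave. Of the values of single genes under the alternatives, 675 moved by less than their counting interval, 182 moved further and 10 reversed. Equal weights, leaving out marked members and leaving out top cells were chosen after seeing the data. Depth limits genes with few UMIs: 8 against 34 Bicd2 UMIs do not separate the libraries.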

Other observations

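Among barcodes over the haemoglobin limit, 66 of 6863 in KO and 31 of 3501 in WT met the rest of the rule, 0.962% (0.745 to 1.22%) and 0.885% (0.602 to 1.25%). Their median C1q count was 5.5 UMIs in KO and 2 in WT, with a median of 32.4% and 26.9% haemoglobin UMIs. Retnla, a gene of alternatively activated macrophages, had 114 UMIs in KO members, all in 1 cell, and 0 in WT members. Bank1, a B-cell adaptor gene, was at 219 CPM in KO members (47 cells) and 49.7 CPM in WT members (36 cells), while Ms4a1 had a UMI in 4 members of each library. The Bank1 ratio was 10.2 (5.25 to 20.2) among members with Ly6c2 and 1.389 (0.997 to 1.957) among members without, and the 9 B cell markers, Bank1 included, summed to 371 CPM in KO and 174 CPM in WT (0 to 8507 and 0 to 3560.5 per cell, 1 at 0 in each); their part was not tested.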
